A study of Mus musculus with 6 samples.

Results

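Astrocytes and Bergmann glia are the supporting cells that take up glutamate, buffer ions and water and supply lipids to neurons in the cerebellum. Bergmann glia are specialized astrocytes whose bodies lie beside Purkinje cells and whose fibers span the molecular layer, where they guide migrating granule neurons. Both arise from radial glia, progenitors that carry intermediate filament and lipid-binding proteins such as nestin, vimentin and Fabp7, and both acquire water channels, connexins and glutamate transporters as they mature. A list of 34 genes of these cells was followed here, chosen by symbol from the 54532 genes of a count table of the newborn mouse cerebellum. All 34 were found, each under 1 gene identifier, and all 34 passed the filter on low counts that left 17505 genes for testing. In the libraries labelled mutant, 14 of the 34 passed the thresholds given below as higher and 0 as lower, against 3.03% and 3.63% of all tested genes. *Glul* and *Timp4* lay slightly lower in every mutant library, without passing them. *Gdf10*, *Gfap* and *Gjb6* rose more than 2-fold, whereas the log2 fold changes of *Slc1a2*, *Tnc*, *Sox9* and *Acsbg1* lay between −0.05 and 0.06.

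Bulk mRNA of whole cerebella was sequenced at postnatal day 1 in 6 libraries. The 3 control libraries came from *Tox3f/f* littermates without Cre, and the 3 mutant libraries from *Nestin-cre;Tox3f/f* animals, so that all 6 carried the floxed *Tox3* allele and only the mutants the transgene. Nestin-Cre expresses the recombinase under nestin regulatory sequence in neural progenitors, which give rise to neurons and glia alike. The effect of the transgene itself and that of the deletion therefore cannot be told apart, and the deletion is not specific to glia. Whole tissue was measured, so a larger share of glial cells and more RNA per glial cell cannot be told apart either. Total counts per library lay between 15391854 and 17178478. Reads over the whole *Tox3* gene came to 64.3, 63.0 and 64.4 CPM (counts scaled to a fixed library total) in controls 1, 2 and 3, against 55.3, 63.2 and 59.2 in the mutants. Its log2 fold change was −0.11 (standard error 0.06, edgeR adjusted p = 0.252), and since reads outside the deleted part are included, this count does not check the labels. *Atoh1*, the factor of granule neuron progenitors, was counted between 30.9 and 32.6 CPM in the controls and between 0.25 and 0.58 CPM in the mutants. Higher and lower below mean in the libraries labelled mutant. Control 1, mutant 1 and mutant 3 held counts from Y-chromosome genes (between 220.5 and 275 CPM in sum) and the other 3 libraries little (between 30.4 and 33.3 CPM), so values within each set are given for the members where they lay farthest apart or differed in sign.

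Levels are given as CPM of normalized library totals between libraries, and as FPKM, which also divides by gene length, between genes. Differences were tested with the quasi-likelihood test of edgeR, and p-values were adjusted over all 17505 genes by the method of Benjamini and Hochberg. Genes were called where that adjusted p was below 0.01 and the log2 fold change exceeded 0.5 in size. By this rule, 3.03% of all tested genes were called higher and 3.63% lower. Of the 34 glial genes, 14 were called higher and 0 lower, 7 more were higher with an adjusted p under 0.01 but a log2 difference short of 0.5, and 13 did not reach that adjusted p. At an unadjusted p under 0.05, *Glul* and *Timp4* were lower, and DESeq2 also called 0 members lower. Without the fold threshold, 6.55% of all genes were higher and 7.24% lower. The fitted difference was above 0 in 31 of the 34 and in 49.1% of all genes. The median log2 fold change of the 34 was 0.46, against −0.01 over all tested genes. In 23 of the 34 every mutant library lay above every control library, in 2 every mutant library lay below, and in 9 the groups overlapped, while over all tested genes such separation was found upward in 20.4% and downward in 20.1%. Together the 34 genes held between 1.02% and 1.04% of the normalized counts in the libraries labelled control and between 1.35% and 1.42% in those labelled mutant. In the plot of all members by library, the medians of the 34 relative to the control mean were 0.43, 0.46 and 0.52 in mutants 1, 2 and 3.

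**Figure D1:**
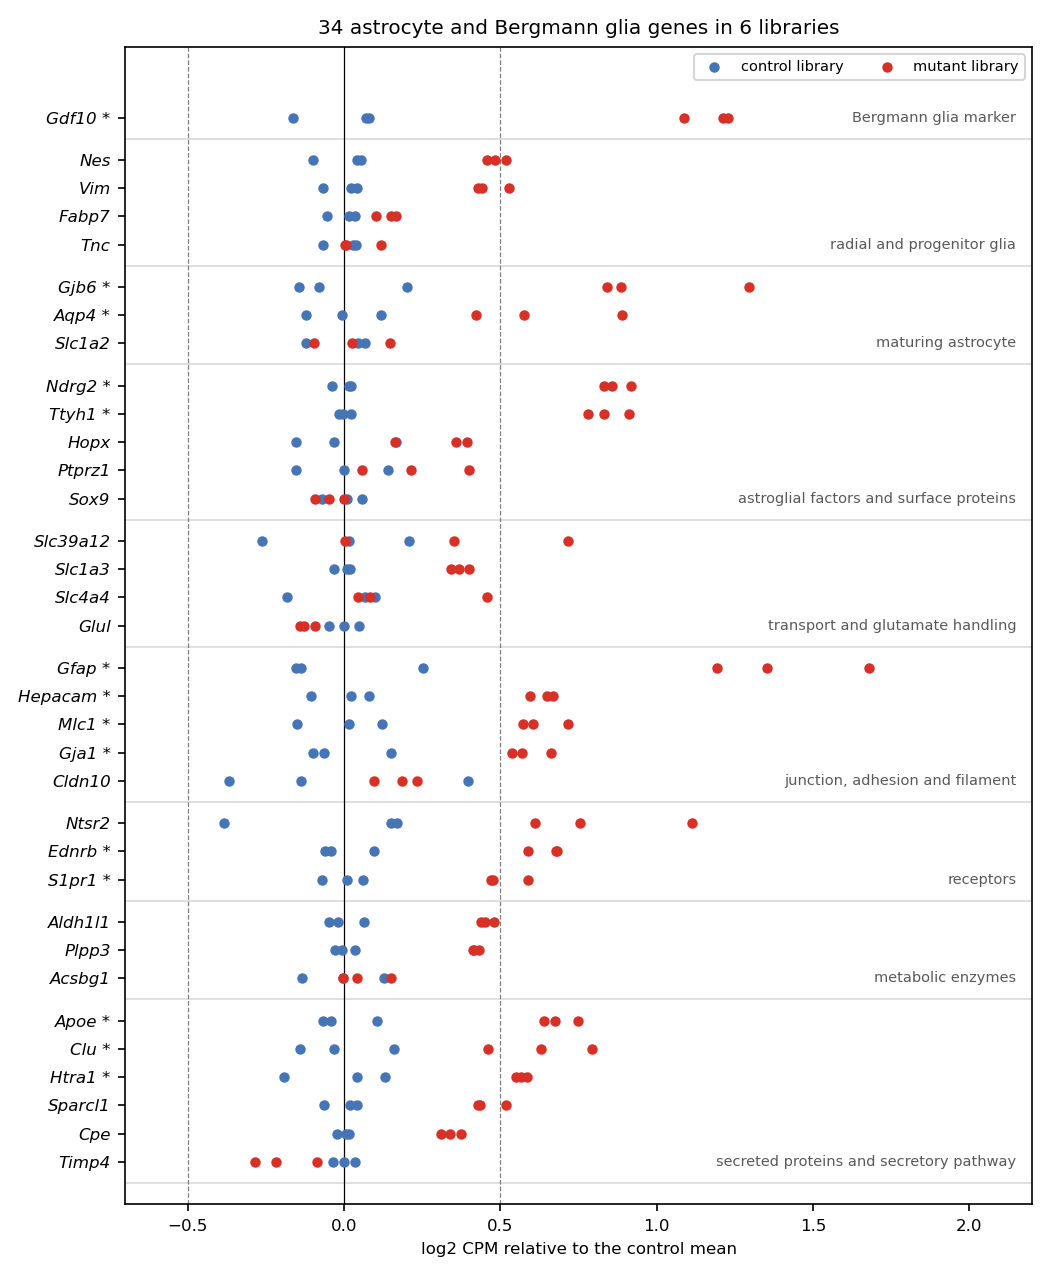
Each row is 1 of the 34 genes and each point 1 library, placed by its log2 CPM relative to the mean of the 3 control libraries, with genes grouped by role and the 14 called genes marked by an asterisk. Dashed lines stand at the log2 threshold of 0.5 in either direction. The red points of *Gfap*, *Gdf10* and *Gjb6* reach farthest to the right, those of *Slc1a2*, *Tnc*, *Sox9* and *Acsbg1* lie among the blue points, and those of *Glul* and *Timp4* lie below them.

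*Gdf10*, a secreted factor of the BMP family and a marker of Bergmann glia, was counted at 383, 379.5 and 323 CPM in controls 1, 2 and 3 and at 769, 839 and 848 CPM in mutants 1, 2 and 3. The lowest mutant library lay above every control library with a wide gap. *Gdf10* thus rose from 362 ± 33.4 to 819 ± 43.2 CPM (SD, n = 3), which on the log2 scale was 1.18 (standard error 0.07, edgeR adjusted p = 7.77e-06). The gene (ENSMUSG00000021943) spans chr14:33923587-33937983 of GRCm38, plus strand. *Timp4*, a secreted inhibitor of metalloproteinases that is also used as a Bergmann glia gene, did not rise. *Timp4* had 76.1, 74.2 and 77.9 CPM in the controls and at 62.4, 71.6 and 65.4 CPM in the mutants, every mutant library lying below every control library. Its log2 fold change was −0.19 (standard error 0.06, edgeR adjusted p = 0.0498). *Timp4* lies opposite to *Syn2*, a neuronal synapsin gene counted at 128 CPM in the controls and 147 CPM in the mutants, and whether the counting used strand is not given in the sources used here, so reads may have been shared between them. Within each library the ratio of *Gdf10* to *Timp4* in FPKM rose by 1.38 on the log2 scale, from 2.42 ± 0.17 to 3.80 ± 0.07 (SD, n = 3). A two-sided exact permutation test over the 6 libraries gave p = 0.1, the smallest that 3 against 3 can give. With *Gdf10* higher and *Timp4* lower in every mutant library, the ratio had to separate the groups. The test therefore adds nothing to the values of the 2 genes.

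The promoters of these genes and of *Gfap*, the member with the largest rise, are shown because they were read for the same short motifs. Each window runs from 250 bases before to 50 bases after the RefSeq start site and is given 5′ to 3′ on the strand of the gene. Capitals mark the NFI half-site TTGGC and the E-boxes CAGCTG and CAGATG, on either strand.
Gdf10 (chr14:33923337-33923636, plus strand): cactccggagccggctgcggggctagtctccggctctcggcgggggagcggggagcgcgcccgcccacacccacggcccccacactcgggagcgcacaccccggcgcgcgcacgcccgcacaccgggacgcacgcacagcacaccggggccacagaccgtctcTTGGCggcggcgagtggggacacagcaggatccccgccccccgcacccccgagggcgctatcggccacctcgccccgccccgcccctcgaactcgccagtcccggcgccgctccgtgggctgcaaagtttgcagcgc
Gfap (chr11:102897151-102897450, minus strand): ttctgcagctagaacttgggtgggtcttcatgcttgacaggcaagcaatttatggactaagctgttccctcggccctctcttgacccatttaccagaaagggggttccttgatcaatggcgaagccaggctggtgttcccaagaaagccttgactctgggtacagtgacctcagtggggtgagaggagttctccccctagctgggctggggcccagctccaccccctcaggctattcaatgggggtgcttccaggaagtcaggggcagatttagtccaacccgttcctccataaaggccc
Timp4 (chr6:115252156-115252455, minus strand): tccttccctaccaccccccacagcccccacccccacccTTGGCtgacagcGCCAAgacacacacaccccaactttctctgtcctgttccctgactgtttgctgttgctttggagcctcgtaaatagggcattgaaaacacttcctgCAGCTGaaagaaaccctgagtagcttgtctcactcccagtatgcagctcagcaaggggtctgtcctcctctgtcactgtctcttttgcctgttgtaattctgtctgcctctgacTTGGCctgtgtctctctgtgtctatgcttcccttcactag
The RefSeq starts of *Gdf10* and *Timp4* are also the 5′ ends of the deposited genes, whereas that of *Gfap* lies 3712 bases inside the deposited gene. The *Gdf10* window had a GC content of 77.3% and held 1 NFI half-site and no E-box of either kind. The *Timp4* window, with 53.3% GC, held 3 NFI half-sites and 1 CAGCTG, and the *Gfap* window, with 55.7% GC, held none of the 3 motifs. RefSeq windows on GRCm38.p6 were matched for 28 of the 34 genes, and not for *Aqp4*, *Clu*, *Cpe*, *S1pr1*, *Sox9* and *Sparcl1*. Among their 36 windows, TTGGC was found in 21 (58.3%), CAGCTG in 5 (13.9%) and CAGATG in 2 (5.56%). Over all 32851 promoter windows the shares were 46.7%, 16.3% and 17.2%. These motifs were chosen after the values of the transcription factors below had been seen, and a match is a run of letters and not a binding site.

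The radial and progenitor glia genes *Fabp7*, *Nes*, *Vim* and *Tnc* all fell short of a call in the fit to all 6 libraries with TMM scaling. *Nes*, the intermediate filament protein nestin, was counted at 226, 205 and 228 CPM in the controls and at 302, 307 and 315 CPM in the mutants. Its log2 fold change of 0.49 (standard error 0.05, edgeR adjusted p = 1.77e-04) lay just below the threshold of 0.5, and *Nes* was called with scaling by library size alone and without control 1, control 3 or mutant 1. *Vim*, the filament protein vimentin, which vascular and meningeal cells also make, was counted at 935, 922 and 866 CPM in the controls and at 1220.1, 1307 and 1233 CPM in the mutants. The log2 fold change of *Vim* was 0.47 (standard error 0.05, edgeR adjusted p = 1.70e-04), and for neither filament gene did the groups overlap. *Fabp7*, the brain lipid-binding protein, had the highest level per length of all 34 genes, 688 ± 21.8 FPKM in the controls and 761 ± 17.1 FPKM in the mutants (SD, n = 3). Its CPM were 889, 836 and 878 against 931, 962 and 974, so that the groups did not overlap although the log2 fold change was only 0.14 (standard error 0.05, edgeR adjusted p = 0.0492). *Tnc*, the matrix protein tenascin C, was counted at 487, 520.4 and 524 CPM against 512, 555 and 512, and the groups overlapped. The log2 fold change of *Tnc* was 0.04 (standard error 0.05, edgeR adjusted p = 0.589).

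The 3 maturing astrocyte genes *Aqp4*, *Slc1a2* and *Gjb6* differed widely among themselves. *Aqp4*, the water channel of astrocyte endfeet, was counted at 191, 226 and 207 CPM in the controls and at 279, 385 and 309.7 CPM in the mutants. It rose by a log2 fold change of 0.64 (standard error 0.11, edgeR adjusted p = 0.00200), and mutant 2 stood above the other mutant libraries. Among the libraries with Y-chromosome counts its log2 difference was 0.62 and among the others 0.83, and it was no longer called without control 3 (edgeR adjusted p = 0.0126) or by limma on the FPKM with a pseudocount of 1 or 0.1 (adjusted p = 0.0124 and 0.0125). The adjusted p of *Aqp4* over all alternatives ran from 2.13e-18 to 0.0126. *Gjb6*, the astrocytic connexin 30, was a low gene, with 102, 124 and 99 counts in the controls and 299, 199 and 202 in the mutants. The mean of *Gjb6* was 7.02 ± 0.92 CPM and 14.3 ± 2.59 CPM (SD, n = 3), and its rise on the log2 scale was 1.02 (standard error 0.16, edgeR adjusted p = 0.00135), or 1.15 among the libraries with Y-chromosome counts and 0.86 among the others. *Slc1a2*, the glutamate transporter GLT-1, was counted at 231, 259 and 264 CPM in the controls and at 235, 278 and 256 CPM in the mutants. The groups overlapped almost fully, and its log2 fold change was 0.03 (standard error 0.07, edgeR adjusted p = 0.804).

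Set side by side, the log2 fold changes were 0.04 to 0.49 for the radial and progenitor genes, 0.03 to 1.02 for the maturing genes and 1.18 for *Gdf10*. The ranges of the radial and the maturing genes, in which the calls of *Nes* and *Aqp4* changed with the fit, thus lay across each other, and the median was 0.30 for the former and 0.64 for the latter. No p is given for such medians, because the genes were chosen with results known. Within the libraries, the ratio of *Aqp4* to *Fabp7* in FPKM rose by 0.49 on the log2 scale, from −4.09 ± 0.17 to −3.59 ± 0.22 (SD, n = 3, exact permutation p = 0.1, two-sided). No other ratio of these maturing to these radial genes was taken, and not every pair would rise. *Slc1a2* had a smaller log2 fold change (0.03) than *Nes* (0.49) and *Vim* (0.47). The plot of the 8 genes by library shows these differences against the spread of the replicates.

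**Figure D2:**
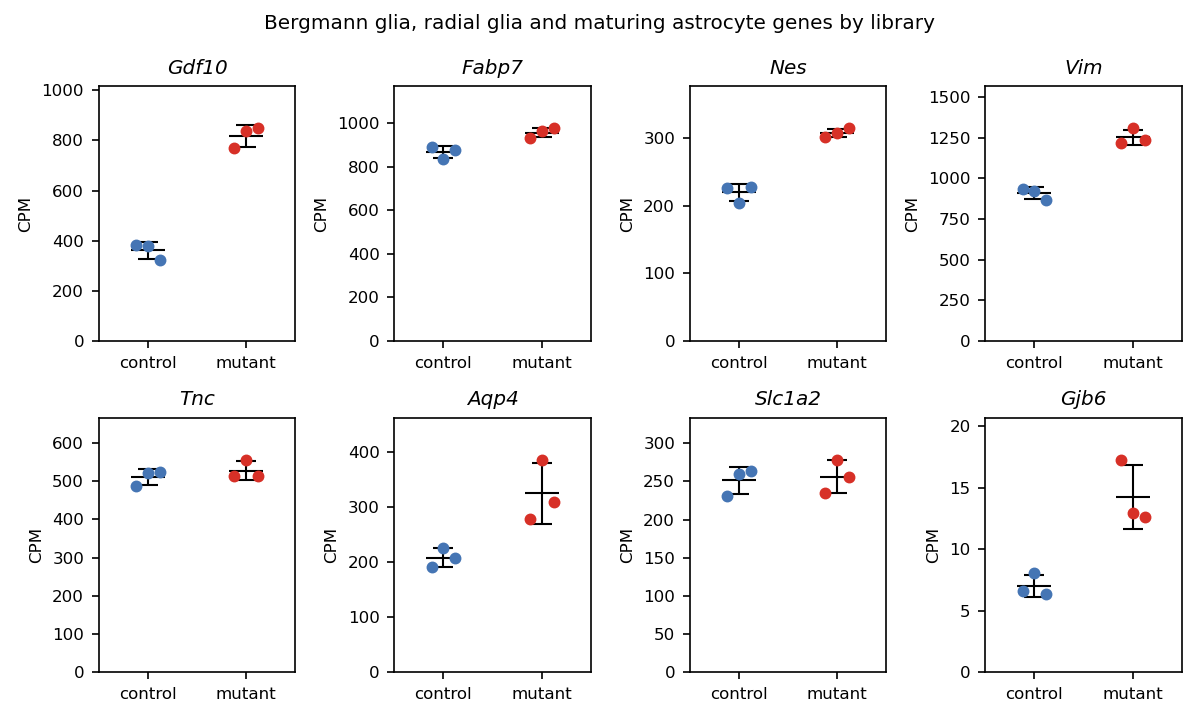
CPM of *Gdf10*, of the radial and progenitor genes *Fabp7*, *Nes*, *Vim* and *Tnc* and of the maturing genes *Aqp4*, *Slc1a2* and *Gjb6* in the libraries labelled control (blue) and mutant (red). Points are libraries and black marks the mean ± SD of 3, and each axis starts at 0. *Gdf10* stands at 362 CPM against 819, while the points of *Tnc* and *Slc1a2* overlap.

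Of the genes of junctions, adhesion and the cytoskeleton of astrocytes, 4 of 5 rose. *Gfap*, the intermediate filament protein of mature and reactive astrocytes, was counted at 48.1, 36.7 and 36.3 CPM in the controls and at 92.2, 129 and 103 CPM in the mutants. The groups lay far apart, and the log2 fold change of 1.42 (standard error 0.14, edgeR adjusted p = 1.03e-04) was the largest of the 34 and by size held rank 20 among the 530 genes called higher. Among the libraries with Y-chromosome counts it was 1.02 and among the others 1.82. Relative to *Vim*, the filament gene of younger glia, *Gfap* rose by 0.95 in log2 FPKM ratio, from −4.33 ± 0.20 to −3.38 ± 0.20 (SD, n = 3, exact permutation p = 0.1, two-sided). *Gja1*, connexin 43, the main gap junction protein of astrocytes, was counted at 101, 121 and 104 CPM in the controls and at 172, 158 and 161 CPM in the mutants (log2 fold change 0.59, standard error 0.07, edgeR adjusted p = 3.31e-04). The log2 difference of *Gja1* was 0.71 among the libraries with Y-chromosome counts and 0.50 among the others. Its partner connexin *Gjb6* stood 2.02 ± 0.07 below it in log2 FPKM in the controls and 1.59 ± 0.19 below it in the mutants (SD, n = 3, exact permutation p = 0.1, two-sided).

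*Mlc1* and *Hepacam* encode membrane proteins that form a complex at astrocyte junctions and endfeet. *Mlc1* was counted at 74.9, 66.6 and 80.5 CPM in the controls and 109.9, 112 and 122 CPM in the mutants, and *Hepacam* at 91.8, 95.6 and 84.1 CPM and at 137, 142 and 144 CPM. Both rose without overlap between the groups, by 0.63 and 0.64 on the log2 scale (standard errors 0.07 and 0.06, edgeR adjusted p = 2.96e-04 and 7.08e-05). *Cldn10*, a claudin, was near the limit of what could be measured, with 29, 34 and 50 counts against 48, 40 and 46. The control libraries enclosed the mutant libraries, and a difference was not detectable at this depth (log2 fold change 0.17, standard error 0.25, edgeR adjusted p = 0.659). Its log2 difference was 0.58 among the libraries with Y-chromosome counts and −0.03 among the others.

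Of the receptors, *Ednrb* and *S1pr1* rose. *Ednrb*, the endothelin B receptor of astroglia, was counted at 402, 443 and 397 CPM in the controls and at 622, 663 and 662 CPM in the mutants, a log2 fold change of 0.65 (standard error 0.06, edgeR adjusted p = 4.84e-05). *S1pr1*, a receptor for sphingosine 1-phosphate that endothelium also carries, was counted at 40.7, 43.0 and 44.6 CPM in the controls and at 59.5, 59.2 and 64.3 CPM in the mutants. At 0.51 on the log2 scale (standard error 0.07, edgeR adjusted p = 6.42e-04), *S1pr1* lay just above the threshold. It was not called without control 1, without mutant 3 or by limma on the FPKM with a pseudocount of 1. *Ntsr2*, a neurotensin receptor of astrocytes, had 60, 88 and 88 counts against 191, 132 and 125. No library of one group reached the other, and its log2 fold change of 0.84 (standard error 0.19) came with an edgeR adjusted p of 0.0106, just outside the threshold. Among the libraries with Y-chromosome counts the log2 difference of *Ntsr2* was 1.25 and among the others 0.60. *Ntsr2* was called by DESeq2, without TMM scaling, without the filter on low counts and with Y-chromosome counts in the model.

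None of the 4 genes of glutamate handling and transport was called, by edgeR or by DESeq2. *Slc1a3*, the glutamate transporter GLAST of Bergmann glia, was among the most abundant members, with 1291, 1299.7 and 1254 CPM in the controls and 1626, 1691 and 1653 CPM in the mutants. The libraries of a group lay close together and the groups apart, and the log2 fold change was 0.37 (standard error 0.04, edgeR adjusted p = 2.20e-04), below the fold threshold. The ratio of *Slc1a3* to *Slc1a2* in FPKM was 2.97 ± 0.12 on the log2 scale in the controls and 3.32 ± 0.09 in the mutants (SD, n = 3), a difference of 0.34 with no overlap between the groups (exact permutation p = 0.1, two-sided). *Glul*, the glutamine synthetase that converts the glutamate so taken up, went the other way, with 387, 375 and 401 CPM against 364, 352 and 354. Each mutant library lay below each control library, but the log2 fold change was small, −0.12 (standard error 0.05, edgeR adjusted p = 0.0810). *Slc4a4*, a sodium bicarbonate cotransporter, was counted at 182, 221 and 216 CPM against 213, 283 and 219, and *Slc39a12*, a zinc transporter, at 4.56, 6.31 and 5.52 CPM against 6.98, 5.47 and 8.97. In both the groups overlapped (edgeR adjusted p = 0.201 and 0.204). The 3 libraries with Y-chromosome counts gave *Slc39a12* a log2 difference of 0.80 and the other 3 a difference of −0.11.

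Among factors and surface proteins of astroglia, *Ttyh1* and *Ndrg2* had the smallest p-values of the 34 together with *Gdf10*. *Ttyh1*, a membrane protein of radial glia and astrocytes, was counted at 268, 264 and 261 CPM in the controls and at 471, 454 and 498 CPM in the mutants, a log2 fold change of 0.84 (standard error 0.05, edgeR adjusted p = 5.52e-06). *Ndrg2*, a cytoplasmic protein used as an astrocyte marker, was counted at 255, 254 and 245 CPM in the controls and at 456, 447 and 475 CPM in the mutants, a log2 fold change of 0.87 (standard error 0.05, edgeR adjusted p = 3.47e-06). By p they held ranks 33 and 23 among all tested genes, and *Gdf10* rank 38. Antisense genes lie opposite to *Ttyh1*, the higher of them at 6.14 CPM in the controls and 12.1 CPM in the mutants. *Sox9*, a transcription factor that specifies glia, was counted at 80.7, 78.1 and 73.9 CPM against 75.0, 77.6 and 72.7, and the groups overlapped (log2 fold change −0.05, standard error 0.06, edgeR adjusted p = 0.594). Within the sets with high and low Y-chromosome counts, *Sox9* differed by −0.13 and 0.03 on the log2 scale. *Ptprz1*, a receptor phosphatase of radial glia, and *Hopx*, a homeodomain-only protein of Bergmann glia progenitors, had log2 fold changes of 0.23 and 0.31 with overlap between the groups (edgeR adjusted p = 0.0978 and 0.0695).

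None of the 3 metabolic enzymes passed the fold threshold. *Aldh1l1*, a folate enzyme and general astrocyte marker, was counted at 328, 322 and 348 CPM against 450.4, 454 and 464. *Plpp3*, a lipid phosphate phosphatase, was counted at 222, 232 and 225 CPM against 305, 301 and 302. In neither did the groups overlap, and the log2 fold changes of 0.46 and 0.42 (standard errors 0.05 and 0.04, edgeR adjusted p = 1.44e-04 and 1.17e-04) fell short of 0.5. *Acsbg1*, a fatty acid CoA ligase, was counted at 49.6, 45.3 and 54.4 CPM against 49.6, 51.2 and 55.2, with overlap (edgeR adjusted p = 0.616).

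Of the 6 genes of secreted proteins and the secretory pathway, *Apoe*, *Clu* and *Htra1* rose. *Apoe*, the lipid carrier apolipoprotein E, was counted at 646, 657 and 728 CPM in the controls and at 1055, 1081 and 1139 CPM in the mutants, a log2 fold change of 0.69 (standard error 0.06, edgeR adjusted p = 4.18e-05). Its level per length was the third highest of the 34 in the controls, 314 ± 20.7 FPKM, and reached 508 ± 20.6 FPKM in the mutants (SD, n = 3). *Clu*, the chaperone clusterin, was counted at 38.6, 35.8 and 44.1 CPM in the controls and at 54.3, 61.1 and 68.5 CPM in the mutants (log2 fold change 0.63, standard error 0.10, edgeR adjusted p = 0.00180). The ratio of *Apoe* to *Clu* did not separate the groups, with a log2 FPKM ratio of 4.79 ± 0.08 against 4.84 ± 0.11 (SD, n = 3, exact permutation p = 0.6, two-sided). Microglia also make *Apoe* and the choroid plexus makes *Clu*. The 10 microglia markers, all detected, summed to between 119 and 125 CPM in the controls and between 157 and 170.0 CPM in the mutants. The 8 choroid plexus markers summed to between 80.5 and 148 CPM in the controls and to 204, 18.4 and 765 CPM in mutants 1, 2 and 3. The part of microglia and choroid plexus in the values of *Apoe* and *Clu* was not tested.

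*Htra1*, a secreted serine protease, was counted at 20.0, 21.4 and 17.1 CPM in the controls and at 28.8, 28.5 and 29.3 CPM in the mutants (log2 fold change 0.57, standard error 0.10, edgeR adjusted p = 0.00207). It overlaps the opposite strand of *Fgfr2*, which itself rose from 43.5 to 67.9 CPM, so the reads of the pair may have been shared. Without control 3, mutant 1 or mutant 3, *Htra1* was not called. *Sparcl1*, a matrix protein that promotes synapse formation and is also made by vessels, was counted at 1257, 1238 and 1168 CPM against 1649.9, 1643 and 1749. *Cpe*, the peptide-processing carboxypeptidase E, which neurons also express, was counted at 523, 510.3 and 521 CPM against 655, 642 and 671. In both the groups stood apart, with log2 fold changes of 0.46 and 0.34 below the threshold (standard errors 0.05 and 0.04, edgeR adjusted p = 1.44e-04 and 4.80e-04).

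Called genes were found over most of the range of levels. The called genes spanned control means from 2.60 FPKM for *Gjb6* to 314 FPKM for *Apoe*. The 2 most abundant genes per length, *Fabp7* and *Sparcl1* (412 ± 15.8 FPKM, SD, n = 3), were not called, and *Slc1a2*, *Slc4a4* and *Sox9*, between 18.6 and 19.0 FPKM in the controls, did not differ from each other beyond their spread in level. At the low end stood *Cldn10* at 0.93 ± 0.26, *Ntsr2* at 1.62 ± 0.33 and *Slc39a12* at 1.81 ± 0.29 FPKM (SD, n = 3), whose standard errors of log2 fold change, 0.25, 0.19 and 0.21, were the largest of the 34.

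**Figure D3:**
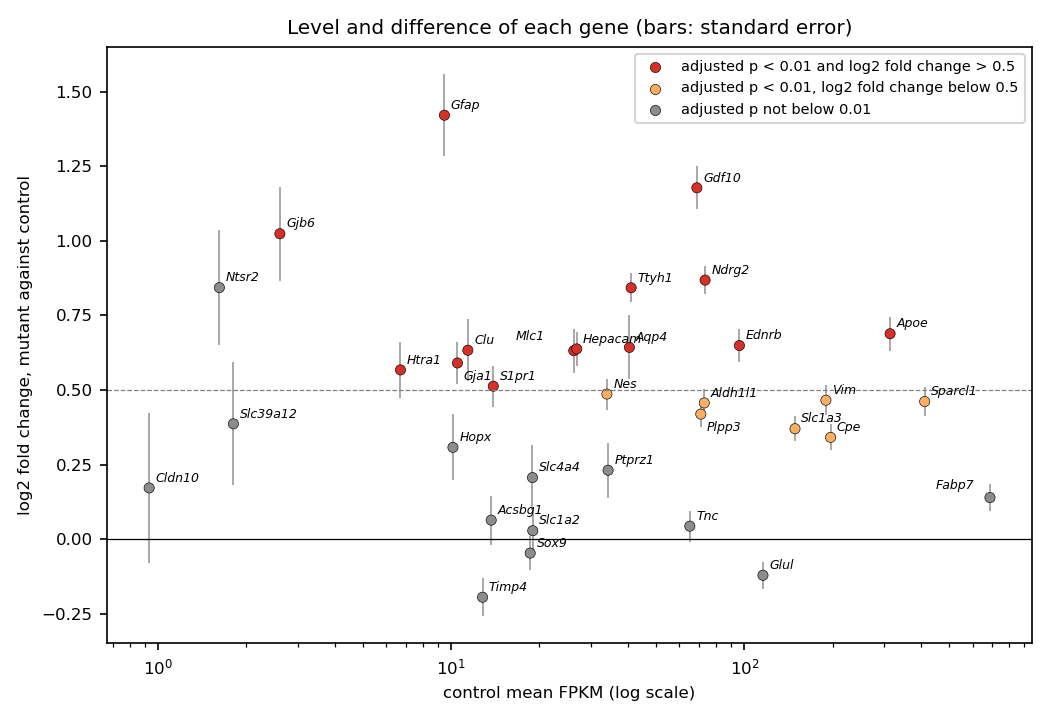
Control mean FPKM on a log axis against the log2 fold change of each of the 34 genes in edgeR, with bars of 1 standard error. Red points are the 14 called genes, orange points the 7 that passed the adjusted p but not the fold threshold, and gray points the other 13. Red points occur from 2.60 to 314 FPKM, and the bars are longest at the left.

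Genes of the same cells outside the list were read in the same fit. Of 38 tested further astrocyte genes, 13 were called higher, with a median log2 fold change of 0.43. The smallest p-values were those of *Lfng*, a Notch-modifying enzyme (0.73, standard error 0.06), *Daam2* (0.74, standard error 0.06) and *Aldoc*, the brain aldolase (0.67, standard error 0.06), with edgeR adjusted p = 3.37e-05, 4.84e-05 and 4.84e-05. Of 17 tested further Bergmann glia genes, 4 were called higher and 3 lower, with a median of 0.28. The 3 lower ones had the smallest p-values. They were *Ezr*, the membrane linker ezrin (−0.83), *Etv5*, an ETS factor downstream of FGF (−0.62), and the septin *Sept4* (−0.86). *Gpr17*, singled out after its value was seen and called higher there (1.07), is better known from oligodendrocyte precursors. Outside the rule for naming, the others called higher were *A2m* (1.10), *Wif1* (0.54) and *Dbi* (0.52). Of 10 tested reactive astrocyte genes, *S100a10* (0.79) and *Emp1* (0.58) were called higher and the median was 0.34. *Lcn2*, a marker of reactive astrocytes named for its low count, had at most 0.62 CPM in any library.

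Transcription factors of gliogenesis moved in both directions, with 4 of 22 called higher and 4 lower and a median of 0.15. The lists share some genes, so their counts are not separate evidence. *Etv5*, called lower here, was also counted among the further Bergmann glia genes. *Fgfr3* was counted among the further astrocyte genes and the signaling genes, and *Gpr17* among the further Bergmann glia genes and the oligodendrocyte markers. *Hey1*, a Notch target, fell by 1.11 on the log2 scale (standard error 0.07, edgeR adjusted p = 7.02e-06), and *Id3*, a BMP target, rose by 0.71 (standard error 0.05, edgeR adjusted p = 2.68e-05). The Notch targets *Hes1* and *Hes5*, outside the rule for naming, did not fall with *Hey1*. Their log2 fold changes were 0.32 and 0.43, without a call (edgeR adjusted p = 0.0933 and 0.228). Picked out after their values were seen, *Sox2*, *Sox8* and *Glis3* were called higher at 0.65, 0.55 and 0.91. The gliogenic factors *Nfia* and *Nfib*, which granule neurons also express, were called lower at −0.57 and −0.59, and *Nfix* stood at 0.01. Of 19 genes of glial signaling, *Fgfr2* (0.64), *Dll1* (0.76) and, outside the rule for naming, *Fgfr3* (0.89) were called higher and the ligand *Fgf9* (−0.72) lower, with a median of 0.17.

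Markers of some other cells were higher along with the glial genes in the same libraries, while those of others were lower or did not differ, as the plot of gene lists shows. Granule lineage markers were called lower in 9 of 10 (summed CPM between 3476 and 3661 in the controls and between 2145 and 2252 in the mutants). Oligodendrocyte lineage markers were called higher in 8 of 10 (568 to 617 against 783 to 852 CPM) and Purkinje cell markers in 6 of 10 (1826 to 1961 against 2456 to 2958 CPM). Outside the rule for naming, *Pdgfra* of the former list (log2 fold change −0.45, edgeR adjusted p = 3.07e-04) and *Lhx1* of the latter (−0.38, edgeR adjusted p = 7.78e-04) were lower. Both fell short of the fold threshold, with every mutant library below every control library. Ependymal markers were called higher in 3 of 7 tested (49.3 to 64.4 against 93.8 to 109 CPM) and meningeal markers in 3 of 10 (781 to 814 against 951 to 1163 CPM). Mural cell markers were called higher in 1 of 8 (456 to 486 against 547 to 562 CPM) and microglia markers in 1 of 10. The median log2 fold change was 0.82 for ependymal, 0.70 for oligodendrocyte lineage and 0.55 for Purkinje cell markers. It was 0.44 for meningeal, 0.41 for microglia, 0.17 for mural cell and −1.04 for granule lineage markers. The median of the 34 glial genes, 0.46, thus lay within the range of these other lists. Of 10 endothelial markers, 0 were called by edgeR or DESeq2 (399 to 447 against 393 to 404 CPM), while at an unadjusted p under 0.05 *Ly6a* was higher and *Kdr* lower, and the median log2 fold change was −0.09. Of 5 erythrocyte markers, 0 were called by edgeR or DESeq2 and 0 reached an unadjusted p under 0.05 (98.6 to 106 against 82.2 to 117 CPM), and no marker of midbrain or hindbrain passed the filter, their sum being at most 4.67 CPM in any library. The part of these cells in the glial values was not tested.

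**Figure D4:**
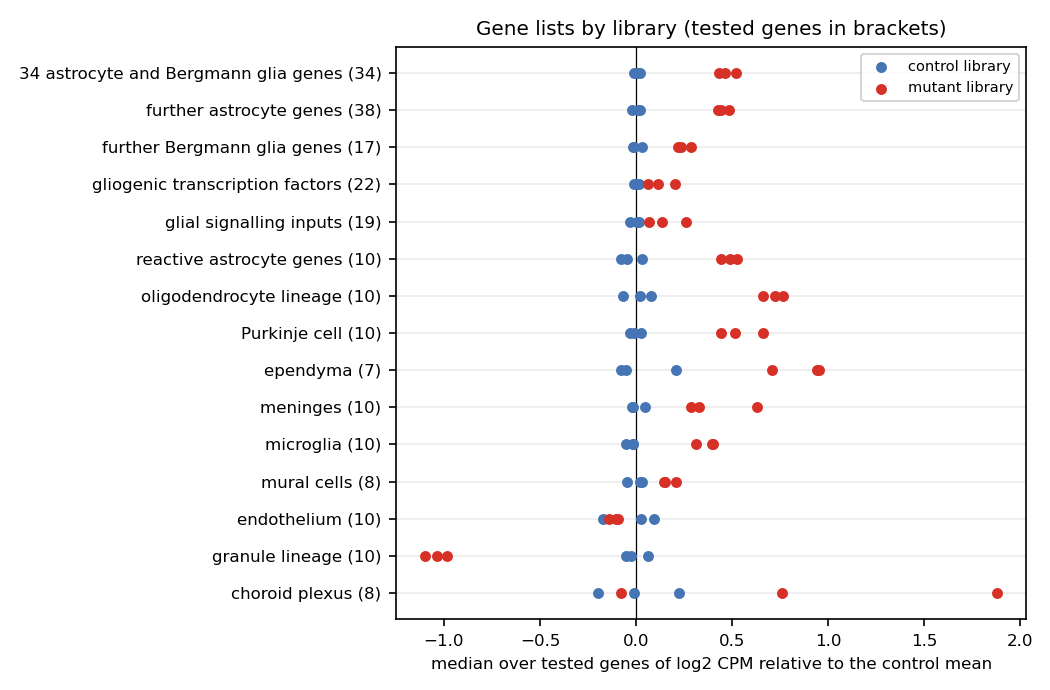
Median over the tested genes of each list of the log2 CPM relative to the control mean, 1 point per library, blue for control and red for mutant, with the number of tested genes in brackets. The 34 glial genes lie between 0.43 and 0.52 in the mutants. The ependymal list lies between 0.71 and 0.95, the oligodendrocyte list between 0.66 and 0.76 and the Purkinje cell list between 0.44 and 0.66. The endothelial list lies between −0.14 and −0.10, and the granule lineage between −1.10 and −0.98. The choroid plexus list ranges from −0.08 to 1.88 among the mutants.

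In the libraries with high Y-chromosome counts (1 control and 2 mutants), the 14 called genes differed by 0.54 to 1.15 on the log2 scale. In those with low counts (2 controls and 1 mutant), they differed by 0.43 to 1.82. In each of the 14 every mutant library lay above every control library, so the direction within the sets was fixed beforehand. Only the sizes of the differences are informative here. The median over the 34 genes was 0.51 and 0.45 in these sets. With Y-chromosome counts in the model, all 14 were called again.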

How the data were processed

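Per the labels, poly-A RNA of 6 cerebella was sequenced (3 control, 3 mutant); groups follow the labels. The authors removed low-quality reads, aligned 150-bp read pairs to mm10 with HISAT2 2.0.5 and counted them per gene with featureCounts 1.5.0-p3; the strand setting and annotation release are not given in the sources used here. The deposited counts are not normalized, and the deposited FPKM are the authors' own values, scaled by gene length and depth. The deposited gene length is in bases and served no test here.

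Genes were joined by Ensembl identifier, and symbols came from the count table. In R 4.3.3, edgeR 4.0.16 (filterByExpr, TMM, glmQLFit, glmQLFTest) was fitted to 17505 genes, which held 99.8% of the counts, comparing mutant with control without a block. CPM used TMM-scaled totals. Calls needed an adjusted p below 0.01 and a log2 fold change over 0.5 in size. Ratios of 2 members were compared with two-sided exact permutation tests over libraries, 6 in all, whose smallest p is 0.1, so adjustment over the 6 cannot reach a threshold either. Nothing states that samples with the same number share a litter, and p-values measure only the spread between these samples.

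The members and lists were chosen with earlier results of these data known. All members are named; of other lists, at most the 3 genes with the smallest p, and all called genes where these were 3 or fewer, with exceptions marked in the text. Promoter windows came from RefSeq (GRCm38.p6). Same-group libraries differed by more than sampling noise (chi-square per gene between 3.63 and 10.0).

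As alternatives, DESeq2 1.42.0, its size factors, library size alone, other filters on low counts (none, or at least 10 counts in every library), a replicate block, a term for Y-chromosome counts, each library left out, limma-trend (limma 3.58.1) on log2(FPKM + 1) and log2(FPKM + 0.1) with at least 0.5 FPKM in 3 libraries, and other thresholds were run. Simulated counts with 200 changed genes served to test the scripts. edgeR recovered 71 of 100 genes changed by 1 and 85 of 100 changed by 1.5 on the log2 scale among 17264 genes, with 0 false calls.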

Additional observations from a re-analysis of the deposited data

How the results depend on the processing

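Of the 14 called members, 11 were called in all 15 other fits at the same threshold. *Aqp4*, *S1pr1* and *Htra1* each lost the call in 3, and *Nes* and *Ntsr2* gained it in 4 each; no called member changed direction. The number of members called higher was 4 when the fold change itself was tested against 0.5 (*Gdf10*, *Gfap*, *Ndrg2* and *Ttyh1*), lay between 12 and 14 with each library left out, and was 12 to 16 in the other fits at the same threshold. No member was called lower in any of them. With each library left out, *Slc1a2*, never called, lay between −0.0286 and 0.0873 (below 0 without control 1 and, at −0.0240, without mutant 2), and *Acsbg1* between −6.96e-05 (without control 2) and 0.13.

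Over all genes, 30 were called higher and 145 lower by the test against 0.5, 285 and 397 on log2(FPKM + 1), 338 higher on log2(FPKM + 0.1), 1147 and 1268 without a fold threshold, and 838 higher at an adjusted p under 0.05. With each library left out, between 349 (without mutant 3) and 569 were called higher. Of the 102 tested further astroglial genes, each counted once, 25 were called higher and 7 lower, against 3.03% and 3.63% of all tested genes. The test against 0.5 called 0 and 3. Without a fold threshold 41 were higher and 9 lower, against 6.55% and 7.24% of all tested genes.

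Whether the replicate numbers pair the samples was not settled. The deviations of samples numbered 1, 2 and 3 correlated at 0.26, 0.30 and −0.16, and those of differently numbered samples at between −0.44 and 0.28. So few libraries cannot decide it. With the replicate number as a block, 14 members were called higher. Depth limits *Cldn10*, *Ntsr2*, *Slc39a12* and *Gjb6*, and 3 libraries against 3 limit every exact test.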
